A study of Homo sapiens with 12 samples.

Results

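The collagen chain genes are the human genes that encode the alpha chains of collagen. They were taken by symbol (COL, a number, A and a number, as in COL1A1), and 44 such genes stood in the gene name table. Reads were listed for 37 of them among the 15381 genes of the cell libraries and for 27 among the 11973 genes of the exosome libraries. All 27 were also listed in cells, so 37 had a value in either. COL5A3, COL6A5, COL9A1, COL20A1, COL22A1, COL23A1 and COL26A1 were listed in neither and were not analysed here.

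RNA was sequenced from AC16 cells, an established human line made by fusing ventricular cardiomyocytes with transformed fibroblasts, and from the exosomes (small secreted membrane vesicles) of these cells. With the labels Con and Ang in both materials, the 12 libraries make 4 groups of 3. What Con and Ang stand for is not spelled out, and the design text names a search for miRNAs in the exosomes of hypertrophic cardiomyocytes as the aim. Nothing in the labels ties the 3 libraries to separate cultures, and p-values here reflect only how far these libraries vary, which may be technical. For cells the labels name the miRNeasy Micro kit and VAHTS Universal V6 libraries, and for exosomes the exoRNeasy Maxi kit and SMARTer Stranded Total RNA libraries. Exosome and kit therefore cannot be told apart in any comparison of exosomes with cells.

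Collagens are the main structural proteins of the extracellular matrix. Their chains wind around each other into a rope-like helix that needs a glycine at regular steps, and chains of different genes often pair in fixed partnerships, such as COL1A1 with COL1A2 in type I collagen. In the heart, types I and III form the interstitial fibres laid down mainly by fibroblasts, type IV forms the sheet of the basement membrane around each muscle cell, and type VI forms beaded filaments between the fibres and that sheet.

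Gene reads summed to between 9202471 and 11212674 in the cell libraries, to between 717263 and 745311 in Con exosomes and to between 535442 and 587783 in Ang exosomes. The biological coefficient of variation (the spread between libraries beyond counting noise) was 0.227 in cells and 0.423 in exosomes. Of 10 cardiomyocyte markers, 7 were listed in cells: MYH6, MYL2 and MYL7 were not listed, TNNT2 had 0 to 9 reads and NKX2-5 0 to 4 reads per library, while GATA4 had 239 to 335 and TTN 709 to 935. TNNI3 had 8 to 20 reads, ACTN2 18 to 36 and RYR2 6 to 18. All 11 fibroblast markers were listed in cells, at levels from 13348 to 24587 reads of VIM and 1643 to 2178 of THY1 down to 145 to 202 of DCN, 51 to 63 of POSTN, 47 to 69 of TCF21 and 10 to 24 of S100A4.

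COL6A1 (ENSG00000142156, chr21:45981737-46005050, plus strand, GRCh38) and COL6A2 (ENSG00000142173, chr21:46098097-46132849, plus) are neighbours on chromosome 21, and COL3A1 (ENSG00000168542, chr2:188974320-189012746, plus) and COL5A2 (ENSG00000204262, chr2:189031896-189225312, minus) on chromosome 2. COL1A1 (ENSG00000108821) lies at chr17:50183289-50201632 on the minus strand, COL1A2 (ENSG00000164692) at chr7:94394561-94431232 on the plus strand and COL7A1 (ENSG00000114270) at chr3:48564073-48595267 on the minus strand.

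The glycine repeat can be read in the coding sequence, where glycine is written GGN. The stretches below come from GENCODE 29 transcripts on GRCh38 and are shown for type V and type VI chains, whose partners stood on opposite sides of the comparison of exosomes with cells, for COL1A2, which was lower in exosomes, and for COL3A1, which differed most. Each is the first 54 bases of the longest part of the uninterrupted repeat within a single exon. Letters run 5′ to 3′ on the coding strand, with the glycine codon that opens each repeat unit in capitals. A further glycine codon of COL6A3 (ggt) lies inside a unit and is in lower case.
COL1A2: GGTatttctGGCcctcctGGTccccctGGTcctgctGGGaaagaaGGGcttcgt
COL3A1: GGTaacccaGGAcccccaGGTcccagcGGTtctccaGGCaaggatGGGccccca
COL5A1: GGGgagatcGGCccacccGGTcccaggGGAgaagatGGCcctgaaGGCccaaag
COL5A2: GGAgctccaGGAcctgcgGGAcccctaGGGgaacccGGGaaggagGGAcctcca
COL6A1: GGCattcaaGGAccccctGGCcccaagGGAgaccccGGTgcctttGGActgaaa
COL6A2: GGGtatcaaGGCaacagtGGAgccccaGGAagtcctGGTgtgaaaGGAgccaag
COL6A3: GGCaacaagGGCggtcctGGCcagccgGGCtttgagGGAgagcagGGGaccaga

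These stretches lie in COL1A2 exon 40 (chr7:94422957-94423010, plus strand), COL3A1 exon 39 (chr2:189003982-189004035, plus) and COL5A1 exon 30 (chr9:134784989-134785042, plus). The others lie in COL5A2 exon 42 (chr2:189051428-189051481, minus), COL6A1 exon 15 (chr21:45990979-45991032, plus), COL6A2 exon 14 (chr21:46119030-46119083, plus) and COL6A3 exon 25 (chr2:237353350-237353403, minus). The longest unbroken run of the repeat held 338 GGN-led units in COL1A1, 339 in COL1A2, 343 in COL3A1, 338 in COL5A1 and 339 in COL5A2. It held 87 units in COL6A1, 87 in COL6A2 and 45 in COL6A3, the chains of type VI, whose helix is short. The genes differed in the last letter of their codons over the whole coding sequence. G or C stood at 80.9% of these codon ends in COL6A2 and 79.0% in COL6A1 against 60.4% in COL6A3, at 60.4% in COL5A1 against 28.8% in COL5A2, at 47.5% in COL1A1 against 32.4% in COL1A2, and at 27.0% in COL3A1. A stretch as short as those printed does not show this order: G or C ended 7 of the 18 codons printed for COL6A2 and 13 of the 18 printed for COL6A3.

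Collagen reads made up about 1 in 100 gene reads in all 4 groups. Their share was 1.03% ± 0.0304 in Con cells, 0.922% ± 0.0357 in Ang cells, 0.853% ± 0.0654 in Con exosomes and 0.869% ± 0.0226 in Ang exosomes (SD, n = 3 each). Over all 6 libraries of each kind it ranged from 0.901% to 1.06% in cells and from 0.792% to 0.922% in exosomes, so these overlapped, while the 3 Ang cell libraries (0.901% to 0.964%) all lay below the 3 Con ones (0.999% to 1.06%). In such bulk RNA, fewer cells that make a collagen and less of its RNA per cell cannot be told apart. The make-up of that share differed between cells and exosomes. Type I collagen (COL1A1 and COL1A2) took 39.4% to 44.7% of the collagen reads in cells and 29.3% to 32.0% in exosomes, and type VI (COL6A1, COL6A2 and COL6A3) took 16.4% to 19.8% in cells and 35.1% to 39.0% in exosomes. Neither pair of ranges overlapped. These shares are of reads and are not tests, since a sum over chosen genes was given none.

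Levels of different genes were compared as reads per kilobase of exon, scaled to the same sum over all genes in every library. In cells COL1A1 stood highest at 1490 ± 124 (SD, n = 6), and its range overlapped that of no other collagen. COL6A2 (498 ± 40.8), COL12A1 (421 ± 74.7), COL1A2 (408 ± 64.3), COL6A1 (384 ± 22.8) and COL5A2 (322 ± 71.9) followed, each with a range that overlapped the next, and COL3A1 (275 ± 12.8) was the seventh. In exosomes COL6A2 stood first at 1262 ± 240, COL1A1 was next at 968 ± 46.7 and COL6A1 was the third at 834 ± 57.3, with overlapping ranges between neighbours. The exosome order then dropped to COL5A1 (168 ± 19.1), COL5A2 (168 ± 25.8), COL1A2 (126 ± 13.1), COL4A2 (125 ± 21.5), COL12A1 (113 ± 23.9) and COL7A1 (86.9 ± 17.5), all overlapping their neighbours. COL3A1, the seventh in cells, was only the fifteenth in exosomes at 24.1 ± 29.8, where its SD exceeded its mean. These orders depend on the length used, here all annotated exon bases of a gene. Per kilobase of the longest coding sequence, COL1A1 was still first in cells, but COL1A2 came next, then COL6A2, COL6A1 and COL12A1. In exosomes COL6A2, COL1A1 and COL6A1 kept the first 3 ranks on that scale, COL4A2 came next, and COL3A1 was at rank 18.

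**Figure D1:**
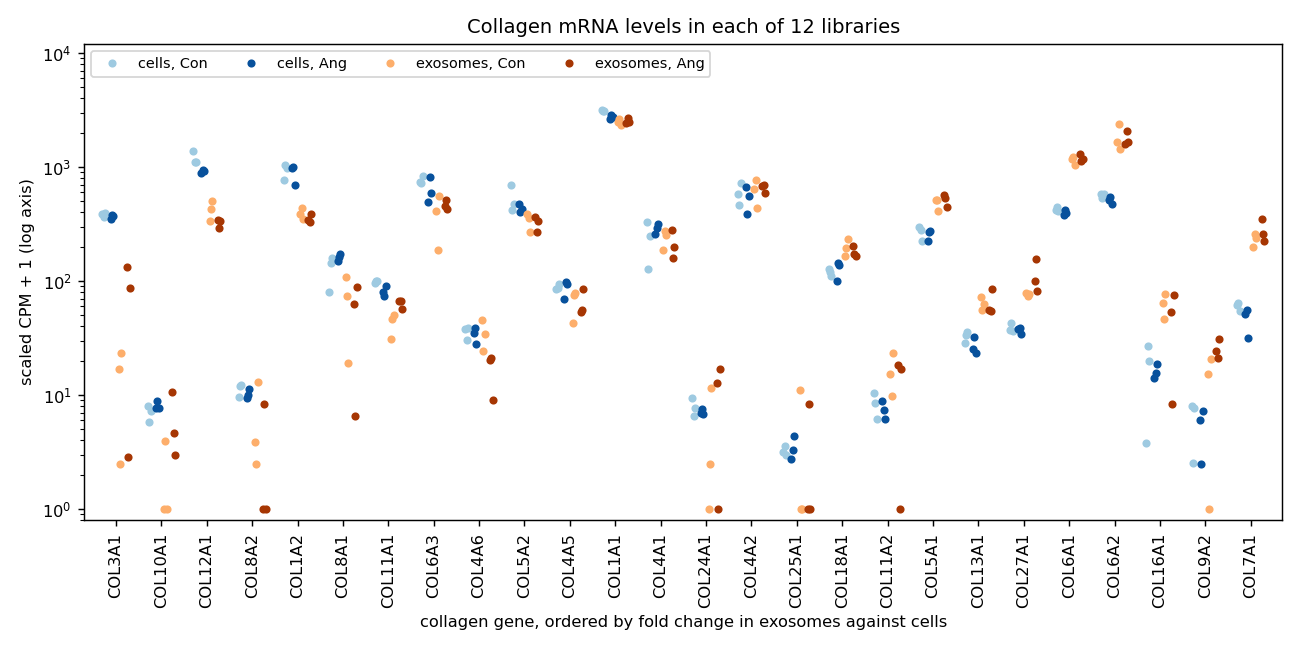
Scaled CPM (a gene's reads relative to all gene reads of the library) plus 1, on a log axis, for the 26 collagen genes tested in exosomes against cells, ordered by that fold change, with a point for each of the 12 libraries in the colour of its group. The exosome points of COL3A1 at the left edge lie below every cell point, and those of COL7A1 at the right edge lie above every cell point.

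Exosomes were compared with cells over all 12 libraries with edgeR's quasi-likelihood test, adjusted by Benjamini-Hochberg over the 11811 genes tested in that comparison. Among the 26 collagen genes tested, 9 were higher in exosomes and 8 were lower at an adjusted p under 0.05, beside 37.1% of all genes that passed (17.6% higher and 19.5% lower). The median log2 difference was −0.16 over the collagen genes and −0.15 over all genes tested. Chains of the same protein stood on opposite sides in type V (COL5A1 higher, COL5A2 lower) and type VI (COL6A1 and COL6A2 higher, COL6A3 lower), while both type I chains were lower. The type VI chains COL6A1 and COL6A2, the anchoring fibril chain COL7A1 and the fibril-associated COL16A1 and COL9A2 were higher, while COL3A1, COL12A1, COL1A2 and the type VI chain COL6A3 were lower. By class, 2 of 9 tested fibrillar chains were higher and 5 lower, none of 4 basement membrane chains passed, and the 3 beaded filament chains split into 2 higher and 1 lower. The values of exosome libraries all lay above those of cell libraries in 7 collagen genes (10.1% of all genes) and all below them in 5 (13.1% of all genes). DESeq2 called 20 of the 26 (48.4% of all genes), adding COL10A1, COL11A2 and COL8A2, and a fit with the replicate number as a block called 15 (35.7% of all genes). COL10A1, COL11A2 and COL8A2 had 0 to 5, 0 to 15 and 0 to 8 reads per exosome library, too few to be tested within exosomes. In this comparison the filter on low counts could be passed on cell reads alone.

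**Figure D2:**
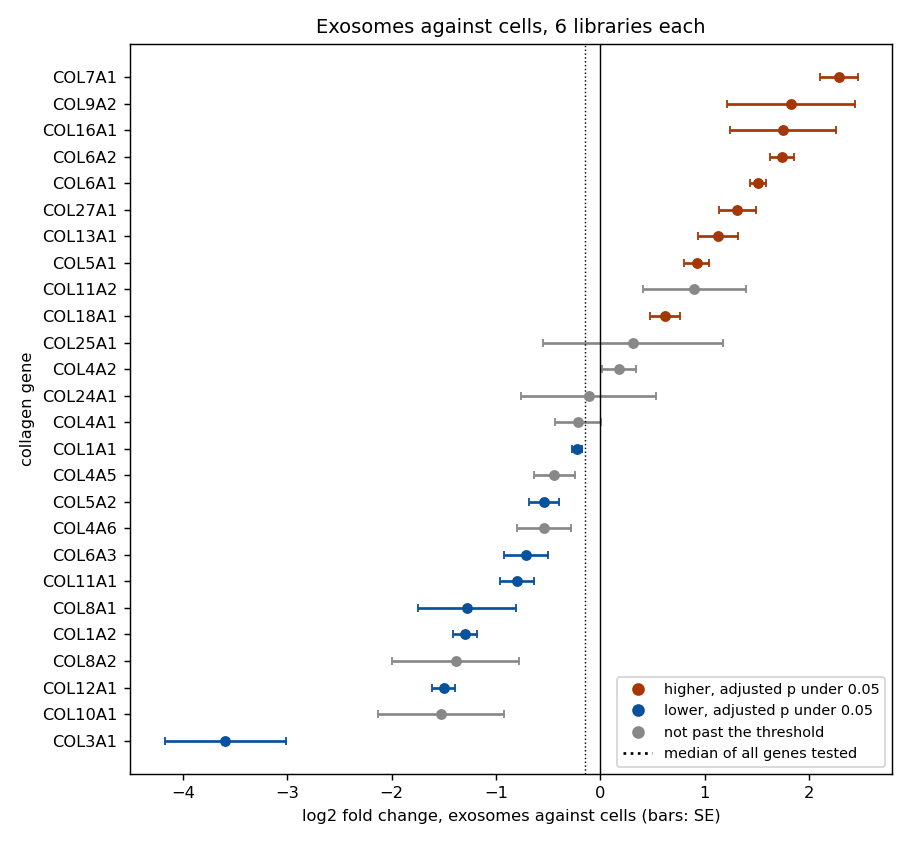
Log2 fold change in 6 exosome libraries against 6 cell libraries for the 26 collagen genes tested, with bars of 1 standard error and a dotted line at the median of all genes tested. The 9 genes higher in exosomes run from COL18A1 at 0.62 to COL7A1 at 2.29, and the 8 lower genes run from COL1A1 at −0.22 to COL3A1 at −3.59.

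Among the fibrillar collagens, COL1A1, which encodes the main chain of type I collagen in bone, skin and scar, had 31549, 32531 and 37354 reads in Con cells, 25706, 30995 and 31222 in Ang cells, 1740, 1781 and 1544 in Con exosomes and 1256, 1469 and 1230 in Ang exosomes. Its scaled level (CPM scaled by the trimmed mean of M-values, here and in the next paragraphs) ran from 2619 to 3131 in cells and from 2318 to 2699 in exosomes, which overlapped, and it was slightly lower in exosomes (log2 −0.22, SE 0.0509, adjusted p = 0.00455). Its partner COL1A2 had 7801, 10811 and 11717 reads in Con cells, 9702, 10860 and 7923 in Ang cells, 269, 296 and 232 in Con exosomes and 177, 180 and 193 in Ang exosomes. Every exosome library lay below every cell library for COL1A2 (331 to 435 against 699 to 1036), and the log2 difference was −1.30 (SE 0.116, adjusted p = 4.06e-06). COL3A1, the chain of type III collagen in extensible tissue and early scar, had 3888, 3815 and 4778 reads in Con cells and 3460, 4112 and 4237 in Ang cells. Its exosome reads were 11, 1 and 15 under Con and 68, 1 and 43 under Ang, so all 6 exosome libraries lay below the cells but differed widely among themselves. The scaled level of COL3A1 was 353 to 398 in cells and 1.47 to 132 in exosomes, 12.1-fold lower (log2 −3.59, SE 0.584, adjusted p = 0.000659). The size of this difference moved with the setting: the log2 value was −4.72 with a replicate block, −4.84 in Con libraries alone and −2.33 in Ang libraries alone.

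Type V collagen, which sets the width of type I fibrils, split between its chains. COL5A1 had 2999, 2923 and 2666 reads in Con cells, 2174, 2952 and 3131 in Ang cells, 359, 347 and 274 in Con exosomes and 292, 289 and 221 in Ang exosomes, and it was higher in exosomes without overlap (log2 0.92, SE 0.117, adjusted p = 6.9e-05). COL5A2 had 6959, 4397 and 5666 reads in Con cells, 4607, 4424 and 4822 in Ang cells, 268, 242 and 178 in Con exosomes and 188, 147 and 167 in Ang exosomes, and it was lower in exosomes, again without overlap (log2 −0.54, SE 0.143, adjusted p = 0.0109). The scaled level of COL5A1 ran from 222 to 298 in cells and from 411 to 567 in exosomes, while that of COL5A2 ran from 406 to 691 and from 267 to 386.

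Type XI chains nucleate thin fibrils, as in cartilage. COL11A1 had 950, 1044 and 1199 reads in Con cells, 775, 802 and 1012 in Ang cells, 21, 31 and 33 in Con exosomes and 34, 36 and 28 in Ang exosomes. Its exosome libraries all lay below the cells (log2 −0.80, SE 0.16, adjusted p = 0.00204). COL11A2 had 94, 79 and 62 reads in Con cells, 78, 70 and 59 in Ang cells, 10, 6 and 15 in Con exosomes and 9, 0 and 8 in Ang exosomes, and it did not pass (log2 0.90, SE 0.494, adjusted p = 0.171). It passed in the fit without the second Ang exosome library (log2 1.20, adjusted p = 0.0166). COL27A1, a fibrillar collagen with a shorter helix, had 362, 438 and 428 reads in Con cells, 366, 410 and 380 in Ang cells, 54, 50 and 51 in Con exosomes and 51, 84 and 40 in Ang exosomes. It was higher in exosomes in all 6 libraries (log2 1.31, SE 0.177, adjusted p = 0.00011). COL24A1, another short fibrillar chain, had 58 to 84 reads per cell library and 0 to 8 per exosome library and did not pass.

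None of the basement membrane chains passed. COL4A1, a member of the partnership that builds most basement membranes, had 3316, 1325 and 2964 reads in Con cells, 2525, 3162 and 3540 in Ang cells, 129, 187 and 169 in Con exosomes and 143, 86 and 98 in Ang exosomes. The log2 difference of COL4A1 was −0.21 (SE 0.217, adjusted p = 0.471), and the scaled exosome range (158 to 278) lay within that of the cells (127 to 329). Its partner COL4A2 had 5868, 4859 and 8757 reads in Con cells, 6482, 4184 and 6322 in Ang cells, 449, 526 and 293 in Con exosomes and 348, 375 and 298 in Ang exosomes. For COL4A2 the log2 difference was 0.18 (SE 0.166, adjusted p = 0.424), also with overlap. COL4A5, a chain of the kidney and muscle basement membrane, had 854, 898 and 1127 reads in Con cells, 667, 1065 and 1051 in Ang cells, 29, 51 and 52 in Con exosomes and 27, 30 and 42 in Ang exosomes. COL4A6, which lies head to head with COL4A5, had 369, 305 and 452 reads in Con cells, 333, 413 and 306 in Ang cells, 31, 16 and 22 in Con exosomes and 10, 11 and 4 in Ang exosomes. Both were below 0 on the log2 scale (COL4A5 −0.44, SE 0.199; COL4A6 −0.54, SE 0.255) and neither passed (adjusted p = 0.102 and 0.117), although COL4A5 did without the third Ang exosome library (adjusted p = 0.0381). COL4A3 and COL4A4, the remaining chains of the family, were listed in cells only, with 6 to 23 and 43 to 77 reads per library.

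Type IV genes lie in head-to-head pairs that start near each other, so their start regions are shared. RefSeq (GRCh38.p14) puts 126 bases between the starts of COL4A2 and COL4A1 (chr13:110307158-110307283), a stretch of 80.2% GC with 1 CCAAT and 1 GGGCGG and no TATAAA on either strand. GENCODE 29 places 124 of these bases in untranslated exon ends of longer transcripts, so the letters are not shown. The starts of COL4A5 and COL4A6 lie 379 bases apart, and the 121 bases that lie within 250 bases upstream of both starts have 44.6% GC. They are shown because the same stretch lies upstream of both genes, on the plus strand at chrX:108439588-108439708. Each CCAAT (or ATTGG, the same word on the other strand) is in capitals.
COL4A5 and COL4A6: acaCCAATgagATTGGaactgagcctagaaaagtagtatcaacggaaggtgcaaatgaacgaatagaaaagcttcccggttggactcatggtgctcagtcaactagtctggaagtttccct

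This stretch holds CCAAT on each strand and neither GGGCGG nor TATAAA. Among 35116 RefSeq windows of the same length just upstream of a start, 20.6% hold CCAAT on either strand, 34.1% GGGCGG and 5.67% TATAAA. The stretch itself borders neither start (108439458 and 108439838), so these shares describe windows at another position. In the windows of 126 bases the shares are 21.1%, 34.6% and 5.87%. The words do not overlap each other, and a match describes the letters only.

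Type VI collagen forms beaded filaments around cells, and its chains were split. COL6A1 had 4196, 4601 and 4971 reads in Con cells, 3714, 4582 and 4495 in Ang cells, 816, 831 and 695 in Con exosomes and 666, 619 and 588 in Ang exosomes. COL6A2 had 5813, 5589 and 6883 reads in Con cells, 5078, 5975 and 5312 in Ang cells, 1142, 1616 and 956 in Con exosomes and 820, 1123 and 827 in Ang exosomes. Both were higher in exosomes in every library: COL6A1 by 2.86-fold (log2 1.51, SE 0.0736, adjusted p = 1.57e-08) and COL6A2 by 3.35-fold (log2 1.74, SE 0.119, adjusted p = 3.57e-07). COL6A3, the long chain of the same molecule, had 7415, 7503 and 9907 reads in Con cells, 4810, 8852 and 6730 in Ang cells, 286, 127 and 373 in Con exosomes and 234, 279 and 212 in Ang exosomes. It was lower in exosomes (log2 −0.71, SE 0.213, adjusted p = 0.0201), although its scaled exosome range (186 to 560) overlapped that of the cells (490 to 825). Without the third Con or the second Ang cell library COL6A3 no longer passed, at an adjusted p of at most 0.0622.

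Among the network-forming short chains, COL8A1, a collagen of vessel walls and of the cornea, had 790, 1485 and 1901 reads in Con cells, 1471, 1744 and 1927 in Ang cells, 75, 50 and 12 in Con exosomes and 32, 3 and 44 in Ang exosomes. It was lower in exosomes at an adjusted p of 0.0498 (log2 −1.28, SE 0.469), and it passed in 2 of 12 fits that left out 1 library, with adjusted p from 0.0299 to 0.104. COL8A2 had 86, 115 and 134 reads in Con cells, 83, 98 and 116 in Ang cells, 2, 1 and 8 in Con exosomes and 0, 4 and 0 in Ang exosomes, and did not pass (log2 −1.38, SE 0.609, adjusted p = 0.0931). Without the third Con exosome library COL8A2 stood at −2.04 and passed (adjusted p = 0.0224), as it did without the second Ang exosome library (−4.87, adjusted p = 0.0125). The Ang exosome libraries left in the latter fit held 0 reads of COL8A2, so −4.87 is not a measured level. COL10A1, the marker chain of hypertrophic cartilage, had 50 to 85 reads per cell library and 0 to 5 per exosome library and did not pass either (log2 −1.52, SE 0.606, adjusted p = 0.066). Without the second Con exosome library COL10A1 stood at −4.34 (adjusted p = 0.0139), and it also passed without the first Ang exosome library. The Con exosome libraries left in the former fit held 0 reads of COL10A1, so −4.34 is not a measured level.

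Fibril-associated collagens (FACITs) sit on the surface of fibrils. COL12A1 had 13841, 11439 and 13183 reads in Con cells, 8735, 10194 and 10448 in Ang cells, 232, 290 and 335 in Con exosomes and 178, 158 and 167 in Ang exosomes, all exosome libraries lying below the cells (890 to 1374 against 290 to 503). It was 2.83-fold lower in exosomes (log2 −1.50, SE 0.108, adjusted p = 5.71e-07). COL16A1 had 28, 271 and 227 reads in Con cells, 129, 161 and 199 in Ang cells, 44, 31 and 51 in Con exosomes and 27, 4 and 37 in Ang exosomes. The first Con cell library and the second Ang exosome library were low, the ranges overlapped, and COL16A1 was higher in exosomes (log2 1.75, SE 0.512, adjusted p = 0.0176), a call lost without the third Ang exosome library (0.0634). COL9A2 had 71, 16 and 81 reads in Con cells, 50, 16 and 70 in Ang cells, 10, 0 and 13 in Con exosomes and 12, 11 and 15 in Ang exosomes. It was higher in exosomes with overlap (log2 1.83, SE 0.615, adjusted p = 0.0335) and passed in 4 of 12 fits that left out 1 library, with adjusted p from 0.00861 to 0.120.

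The transmembrane chain COL13A1, found at muscle and nerve junctions, had 281, 342 and 418 reads in Con cells, 241, 344 and 256 in Ang cells, 50, 37 and 41 in Con exosomes and 28, 29 and 42 in Ang exosomes. It was higher in exosomes without overlap (log2 1.13, SE 0.19, adjusted p = 0.000596). COL18A1, a basement membrane multiplexin whose end piece is endostatin, had 1275, 1254 and 1311 reads in Con cells, 971, 1572 and 1555 in Ang cells, 114, 131 and 155 in Con exosomes and 105, 94 and 82 in Ang exosomes. It too was higher without overlap (log2 0.62, SE 0.144, adjusted p = 0.0051), but 16.4% of its exon length is shared with genes on the other strand, and the use of strand in counting is not given in the sources used here. COL7A1, which forms the anchoring fibrils under the epidermis, had 610, 657 and 642 reads in Con cells, 496, 599 and 345 in Ang cells, 137, 174 and 159 in Con exosomes and 180, 141 and 111 in Ang exosomes. COL7A1 showed the largest positive difference of the 26 genes, 4.88-fold (log2 2.29, SE 0.181, adjusted p = 1.32e-06), with every exosome library (197 to 349) above every cell library (30.5 to 63.0). COL25A1, a neuronal transmembrane chain, had 17 to 38 reads per cell library and 0 to 7 per exosome library and did not pass.

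The ratio between partner chains was computed within each library from reads per kilobase of exon and so does not depend on depth. COL1A2 stood at 0.275 ± 0.0462 of COL1A1 in cells and at 0.131 ± 0.0134 in exosomes (SD, n = 6 each), and the ranges (0.218 to 0.332 and 0.108 to 0.146) did not overlap. COL5A2 stood at 2.78 ± 0.565 of COL5A1 in cells and 1.001 ± 0.136 in exosomes, also without overlap. COL6A3 stood at 0.459 ± 0.0723 of COL6A1 in cells and 0.0999 ± 0.0349 in exosomes, 4.59-fold lower and again without overlap. The ratio of COL6A2 to COL6A1 (1.30 ± 0.0887 and 1.52 ± 0.280) and that of COL4A2 to COL4A1 (1.79 ± 0.671 and 2.27 ± 0.687) overlapped between cells and exosomes. In exosomes the ratio of COL8A2 to COL8A1 rested on very few reads and ran from 0 to 2.69, against 0.113 to 0.219 in cells. These ratios carry no test, and the genes were tested individually above.

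**Figure D3:**
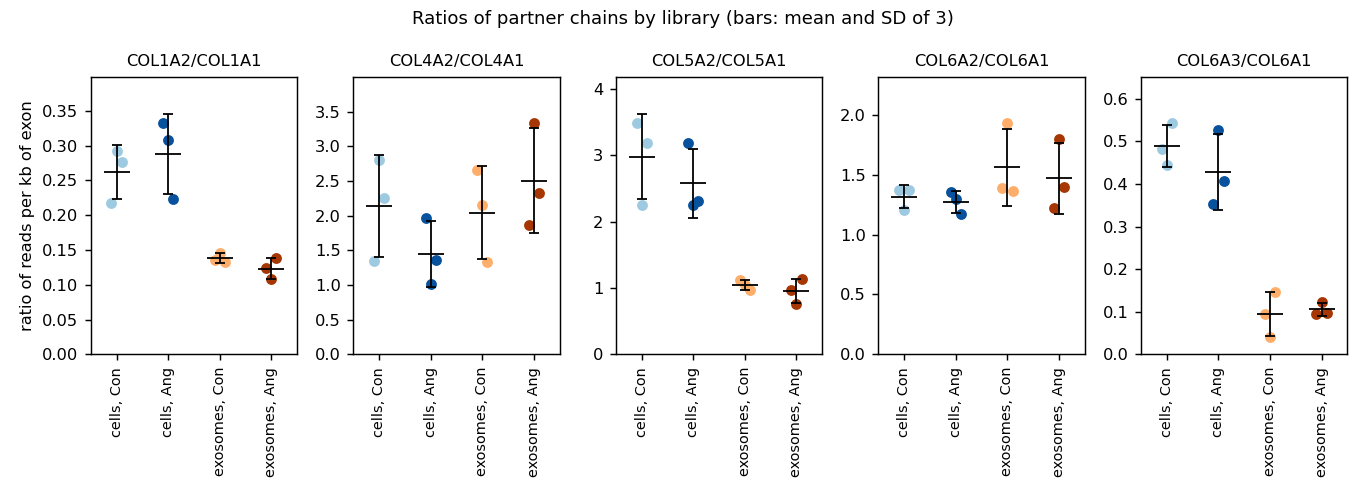
Ratio of reads per kilobase of exon between partner chains in each library (points), with the mean and SD of the 3 libraries of each group (bars). For COL1A2/COL1A1, COL5A2/COL5A1 and COL6A3/COL6A1 all 6 exosome points lie below all 6 cell points, and for COL4A2/COL4A1 and COL6A2/COL6A1 they overlap.

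Base composition moved with the difference between exosomes and cells. Transcript GC content ran from 59.0% to 67.2% (median 63.5%) in the 9 collagen genes higher in exosomes, from 46.3% to 61.1% (median 50.02%) in the 8 lower genes and from 41.3% to 63.3% in the 9 that did not pass. Across the 26 genes Pearson's r between GC content and the log2 difference was 0.63 and Spearman's rho 0.68, and across 11793 genes with a known GC content they were 0.26 and 0.29. These are correlations across genes, which share the same 12 libraries, kits and scaling and are not independent replicates. For the share of G or C at codon ends r was 0.65 and rho 0.60 across the 26 genes, while for transcript length they were −0.12 and −0.07. That share ran from 54.5% to 80.9% in the higher genes and from 27.0% to 60.4% in the lower genes. The part of base composition in these differences was not tested. The offset described next was fitted to the same libraries and takes out any GC-related difference, so it cannot tell what that part is.

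**Figure D4:**
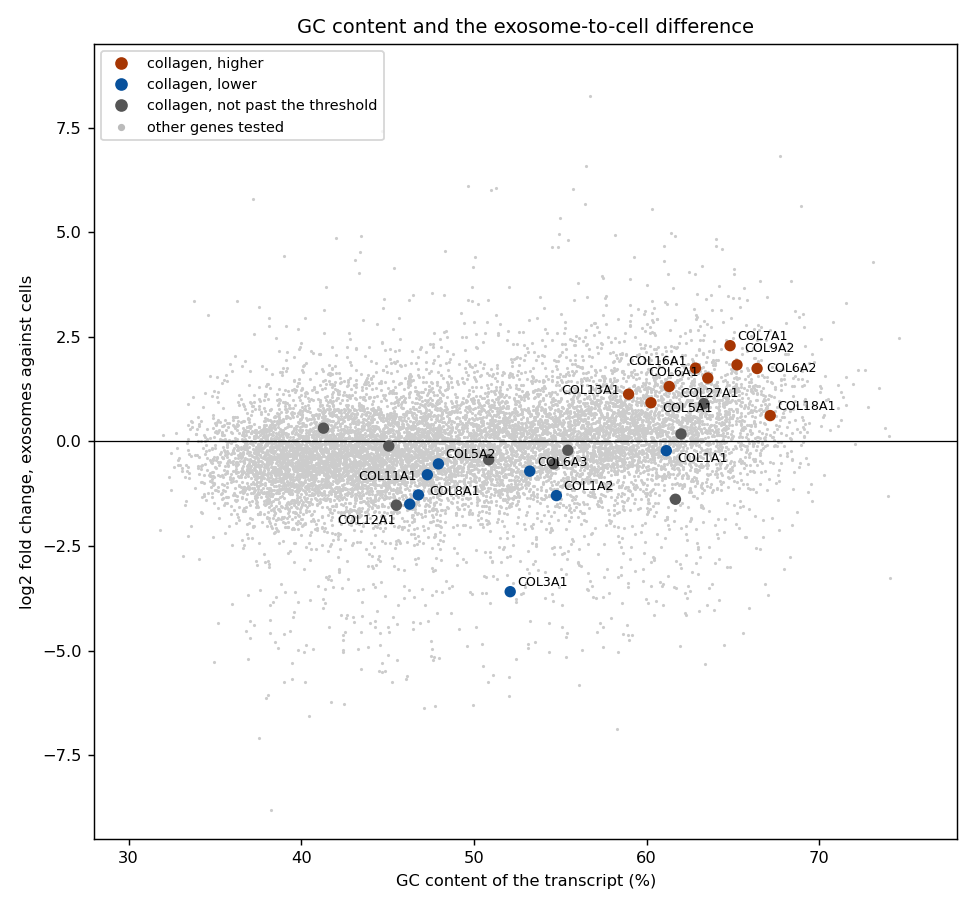
Transcript GC content (%) against the log2 fold change in exosomes against cells, for the 26 collagen genes (large points, named where the adjusted p was under 0.05) and all other genes tested (small grey points). The named genes above 0 lie at 59.0% GC or more, and of the named genes below 0 only COL1A1 (61.1%) lies there.

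With an offset for GC content fitted in each library, 13 of the 26 collagen genes passed, 6 higher and 7 lower (32.3% of all genes passed, 18.7% higher and 13.6% lower), and 12 of these also passed without the offset. COL16A1, COL18A1, COL5A2, COL8A1 and COL9A2 no longer passed, and COL18A1 went from 0.62 to −0.00097. COL8A2 passed only with the offset, at 0 to 8 reads per exosome library. The type VI split was kept: COL6A1 stood at 1.09 and COL6A2 at 1.15 on the log2 scale and COL6A3 at −0.66, and COL3A1 stood at −3.49. In type V, COL5A1 stood at 0.66 and still passed, while COL5A2 stood at −0.31 and did not (adjusted p = 0.116). The offset moved the median of all genes from −0.15 to −0.002 and the split of all genes called from 2082 higher and 2298 lower to 2204 higher and 1608 lower. In Con libraries alone 12 collagen genes passed (20.5% of all genes), and in Ang libraries alone 9 did (18.3%). COL5A2 passed in neither (adjusted p = 0.0881 in Con and 0.0981 in Ang), nor did COL6A3 (0.0975 and 0.168). COL3A1 and COL1A1 were among those that passed in Con alone and not in Ang alone, where COL3A1 stood at −2.33 (adjusted p = 0.0978). The test of that difference is given with the last comparison.

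Proteins that modify, fold, secrete and degrade collagen were followed in a list of 69 genes, 57 of which were tested in exosomes against cells. Of these, 9 were higher and 14 lower (37.1% of all genes passed in either direction), with a median log2 difference of −0.36 against −0.15 over all genes. Among 13 folding and secretion genes 6 were lower and none higher. The lower genes included MIA3 (log2 −1.45, SE 0.113) and MIA2 (−2.37, SE 0.272), whose products load bulky collagen into transport vesicles at the endoplasmic reticulum exit, and TMEM38B (−1.51, SE 0.405), a potassium channel of that compartment. Of 9 prolyl hydroxylation genes, CRTAP (1.48, SE 0.0945), PPIB (0.55, SE 0.131) and P3H3 (1.19, SE 0.394) were higher and P3H1 (−0.69, SE 0.209) was lower, although CRTAP, PPIB and P3H1 act in a single complex. The procollagen C-proteinase gene BMP1 was higher (0.59, SE 0.171) and its enhancer PCOLCE lower (−0.82, SE 0.165). The cross-linking enzyme LOX was lower (−0.93, SE 0.153), and none of 4 lysyl hydroxylation and glycosylation genes or 5 degradation genes passed.

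Among 8 collagen receptors, DDR2, a tyrosine kinase that binds fibrillar collagen, was higher in exosomes (1.43, SE 0.13), and the integrin chains ITGB1 (−0.69, SE 0.0853) and ITGA2 (−0.81, SE 0.232) were lower. Of 9 genes that control collagen transcription and translation, 4 were higher and 3 lower. RUNX2 (1.77, SE 0.309), SMAD3 (0.74, SE 0.0999) and LARP6 (0.85, SE 0.167), whose product binds collagen mRNAs at their start, were among the higher ones. CCN2 (−1.66, SE 0.145) and the TGF-beta receptors TGFBR1 (−0.93, SE 0.208) and TGFBR2 (−0.91, SE 0.197) were the lower ones. Markers of other cells were also followed. Their summed CPM were scaled within cells and within exosomes separately, so the sums of cells and exosomes are not on a common scale. The summed level of the fibroblast list was 2127 to 3266 CPM in cells and 3269 to 4875 in exosomes, with 2 of 10 tested members higher (VIM and DDR2) and 2 lower (DCN at −1.91 and LUM at −1.30). VIM and DDR2 hold most of that sum, and DDR2 is also one of the receptors above. The cardiomyocyte list summed to between 105 and 126 in cells and between 25.8 and 67.2 in exosomes, with TTN lower (log2 −2.74, SE 0.188) and no other of the 3 tested members passing. The smooth muscle list summed to between 22.4 and 35.7 in cells and between 16.7 and 68.8 in exosomes, with CNN1 higher (1.42, SE 0.319) and MYH11 lower (−2.10, SE 0.72). The summed endothelial list ran from 13.1 to 16.1 in cells and from 0 to 11.1 in exosomes, and the immune list from 13.6 to 71.2 and from 3.70 to 177. The part of these levels in the collagen differences was not tested.

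Ang cells were compared with Con cells to see whether the collagens changed with that label. With edgeR none of 32 collagen genes tested passed at an adjusted p under 0.05, nor did any of 13331 genes (0% of all genes). Their adjusted p ran from 0.781 to 0.989 with edgeR. DESeq2 also called none of the collagen genes (0.45% of all genes), with an adjusted p of 0.0917 for COL1A1, 0.233 for COL12A1 and 0.428 for COL11A1. At an unadjusted p under 0.05 stood 3 collagen genes, beside 6.12% of all genes. The log2 differences were below 0 for 26 of the 32 and above 0 for 6, with a median of −0.15 against −0.0008 over all genes, and they ran from −0.67 to 0.33. All were measured in the same 6 libraries, so the signs are not independent of each other. The lean also moved with single libraries. It was 7 of 32 genes above 0 (median −0.144) without the second Ang cell library. Without the first Ang cell library it was 12 of 34 (median −0.104).

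The 3 genes with a small unadjusted p were lower in Ang cells. Their CPM here were scaled within the cell libraries alone, which is not the scale used above for exosomes against cells. COL1A1 stood at 3358, 3361 and 3328 CPM in Con cells and at 2800, 3040 and 2935 in Ang cells, without overlap (log2 −0.20, SE 0.037, adjusted p = 0.781). COL12A1 stood at 1473, 1182 and 1175 in Con and at 951.5, 999.8 and 982 in Ang, also without overlap (log2 −0.38, SE 0.0972, adjusted p = 0.788). COL11A1 stood at 101, 108 and 107 in Con and at 84.4, 78.7 and 95.1 in Ang (log2 −0.29, SE 0.0869, adjusted p = 0.795). With COL2A1, the cartilage fibril chain at 7 to 18 reads per library, these were the 4 genes whose Ang cell libraries all lay below the Con ones, beside 6.89% of all genes. In no tested collagen gene did all Ang cell libraries lie above Con (7.01% of all genes). COL3A1 and COL1A2, the other abundant fibrillar chains, differed by −0.07 (SE 0.0507) and −0.06 (SE 0.18). The largest positive value was that of COL8A1 (0.33, SE 0.263), whose first Con library had 790 reads against 1471 to 1927 in the Ang cells. In the pathway list none of 61 tested genes passed, and the smallest p-values belonged to LOXL1 (0.19, SE 0.0459, adjusted p = 0.781), a cross-linking enzyme, and BMP1 (−0.29, SE 0.074, adjusted p = 0.788).

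Ang exosomes were compared with Con exosomes in the same way. None of 21 collagen genes tested passed with edgeR (0.012% of all genes did) or with DESeq2 (0.192% of all genes), the adjusted p of each was 0.999, and none stood at an unadjusted p under 0.05, beside 3.79% of all genes. The differences were above 0 for 11 genes and below 0 for 10, with a median of 0.03 against −0.002 over all genes. The largest was that of COL3A1 (log2 2.45, SE 1.28), whose Ang libraries had 68, 1 and 43 reads against 11, 1 and 15 in Con, so that a library with a single read stood in each group. This value was 1.70 without the first Ang library and 3.05 without the third Con library. The lowest was that of COL4A6 (−1.07, SE 0.589), at 42.7, 22.2 and 31.5 CPM in Con and 18.5, 19.3 and 7.68 in Ang. CPM in this paragraph were scaled within the exosome libraries alone. COL4A6 was the only collagen gene whose Ang exosome libraries all lay below Con (5.6% of all genes), and COL11A1, COL27A1 and COL9A2 were the 3 whose Ang exosome libraries all lay above (5.18% of all genes). COL1A1 (0.04, SE 0.0805), COL6A1 (0.08, SE 0.108) and COL6A2 (−0.03, SE 0.193), the most abundant chains in exosomes, differed by less than their standard errors, so that differences of this size were not detectable here. None of 50 pathway genes passed; KLHL12 (−1.20, SE 0.48), which helps form large collagen-carrying vesicles, and SEC24D (−0.96, SE 0.4) had the smallest p-values. Haemoglobin genes, the blood markers listed, summed to 0 in each Ang exosome library and to between 0 and 39.9 CPM in Con, and their part in these values was not tested.

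**Figure D5:**
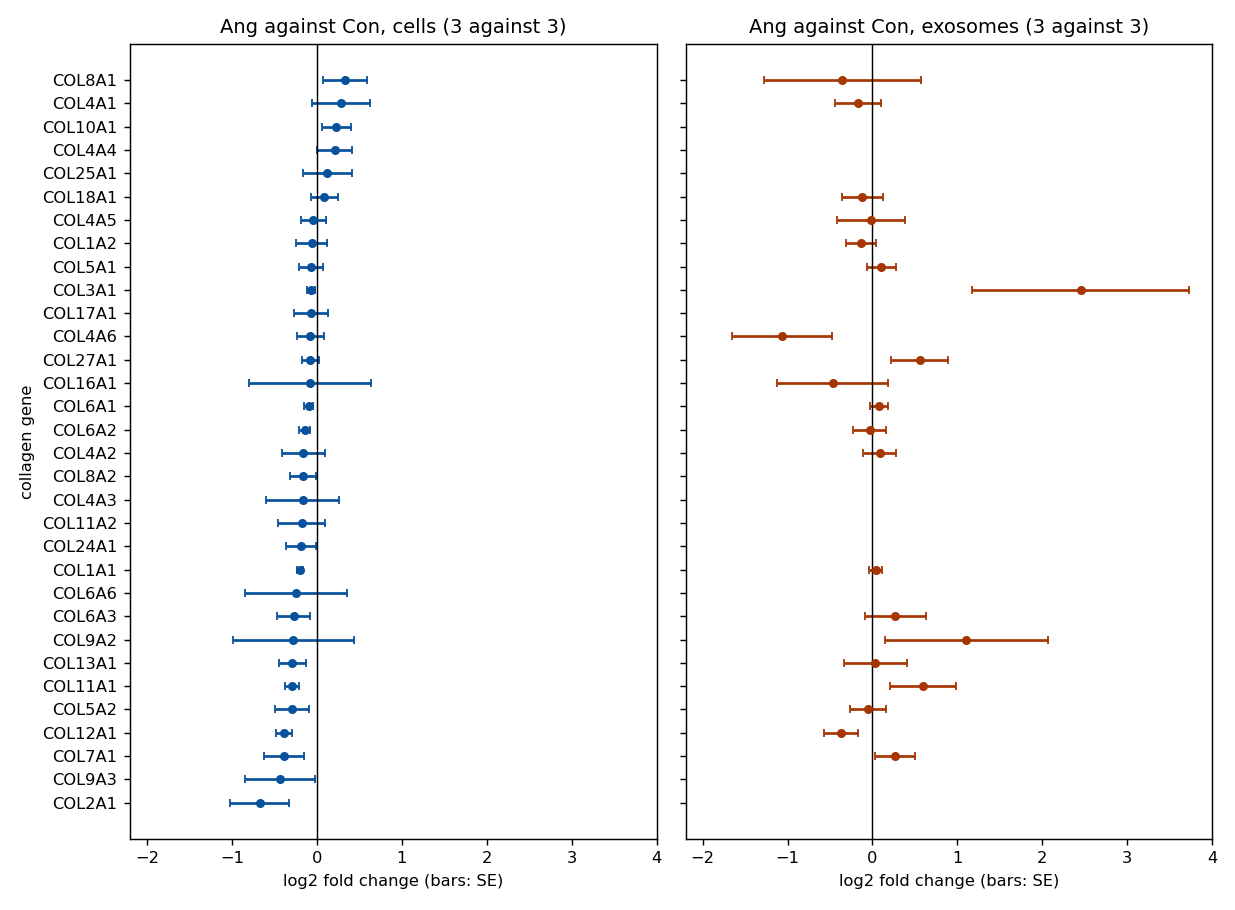
Log2 fold change of Ang against Con, with bars of 1 standard error, for the collagen genes tested in cells (left, 32 genes) and in exosomes (right, 21 genes). Differences in cells lie between −0.67 and 0.33 and in exosomes between −1.07 and 2.45, and none passed the adjusted threshold.

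The change between Ang and Con was then compared between exosomes and cells. With edgeR none of 26 collagen genes passed this test of the difference (3 genes passed in all, 0.0254%), and 2 stood at an unadjusted p under 0.05, beside 8.22% of all genes. These were COL11A1, at −0.29 in cells and 0.59 in exosomes (difference 0.87, SE 0.32, adjusted p = 0.516), and COL3A1, at −0.07 and 2.45 (difference 2.52, SE 1.13, adjusted p = 0.606). With DESeq2, COL11A1 alone of the collagen genes passed (difference 0.91, adjusted p = 0.0272), beside 3.12% of all genes. With the replicate number as a block no collagen gene passed (0.00847% of all genes). The pathway list held no gene that passed among 57, and its smallest p-values were those of the integrin chain ITGA10 (−3.57, SE 1.51) and of KLHL12 (−1.34, SE 0.595).

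The remaining collagen genes had few reads. In cells COL17A1, COL2A1, COL6A6 and COL9A3 were tested with between 5 and 48 reads per library, and none passed. COL14A1, COL15A1, COL19A1, COL21A1 and COL28A1 had 0 to 17 reads per cell library and were left out of the tests by the filter on low counts. Of the 27 genes listed in exosomes, COL10A1, COL11A2, COL24A1, COL25A1, COL8A2 and COL9A3 had 0 to 15 reads per exosome library and were not tested between Ang and Con exosomes. A gene that passed the filter for exosomes against cells could do so on its cell reads alone.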

How the data were processed

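The authors deposited whole-number read counts per Ensembl gene for each compartment and counts of junction reads per circular RNA, per the file headers. GRCh38, HISAT2 and StringTie are named, without versions or roles, per the submitters' processing notes; for the counting tool, strand setting and annotation, no source used here gives a name. The smallest total of a listed gene was 7 reads in either material.

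Symbols came from the gene name table, and lengths, GC content and coordinates from GENCODE 29. Counts were fitted as deposited with edgeR 4.0.16 in R 4.3.3 (quasi-likelihood F test, two-sided, trimmed mean of M-values scaling, robust spread) after filterByExpr (minimum count 10, minimum total 15), on all genes, with Benjamini-Hochberg adjustment and a threshold of 0.05. Ang and Con were compared within cells and within exosomes. Exosomes were compared with cells, and the difference between their Ang changes was tested, in a joint fit of all 12 libraries to genes that both tables hold. That fit gave each gene a single spread for both materials. The biological coefficient of variation was 0.319 jointly, against 0.227 in cells and 0.423 in exosomes. The joint p-values thus do not carry the larger spread of exosomes on its own. DESeq2 1.42.0, another scaling, no filter, a replicate block, single labels and each library left out were alternatives. Tests were checked on simulated counts.

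Reads per library are printed for collagen genes with a mean of at least 10 CPM in cells or exosomes, or that passed in any comparison. Called pathway genes are named up to 3 per direction and role, or else the 2 with the smallest p. Genes and lists were chosen with earlier results of these data known. Small RNAs were not analysed here. A planned sequence is not reported here.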

Additional observations from a re-analysis of the deposited data

How the results depend on the processing

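In exosomes against cells, 17 of 26 collagen genes tested passed with all libraries. Leaving out 1 cell library put 14 to 16 of 22 past the threshold, and leaving out 1 exosome library put 16 to 18 of 27. The genes tested thus changed with the library left out, and COL10A1, COL8A2, COL24A1 and COL25A1 were tested in only 6 of the 12 fits. Of the 26, a replicate block gave 15, DESeq2 called 20 and Ang libraries alone gave 9. Over all genes, 4380 calls became 2395 in Con alone and 2126 in Ang alone. Between Ang and Con, no collagen gene was called under any alternative except COL11A1 in the test of the difference (1 by DESeq2). Counts over all genes were, in cells, 0 (60 by DESeq2, 0 to 3 without 1 library), in exosomes 1 (16 by DESeq2, 3 without the filter, 22 fitted to all 12 libraries, 0 with a replicate block, 1 to 4 without 1 library) and for the difference 3 (368 by DESeq2, 1 with a replicate block, 1 to 17 without 1 library). Same-numbered deviations correlated at −0.0438 to −0.0157 in cells and −0.0171 to −0.00613 in exosomes. With so few libraries per group, these values cannot decide whether replicate numbers pair the libraries, which the labels do not state. Under the block COL6A3 and COL8A1 lost their calls. Between Ang and Con only some collagen genes were followed individually in these fits. Among those followed, signs turned in cells for COL4A1 (−0.0125 to 0.61 without 1 library) and COL1A2 (−0.18 to 0.0890), and in exosomes for COL1A1 (−0.0136 to 0.0609). Other collagen genes in cells turned too, since the genes above 0 went from 6 of 32 to 12 of 34 without the third Con library. In exosomes against cells signs turned for COL24A1 (−1.32 to 0.19, Ang alone 0.59, GC offset 0.20), COL25A1 (−3.38 to 0.60, block −1.68) and COL4A1 (Con alone 0.0286), and under the GC offset for COL4A2 (−0.18) and COL18A1 (−0.00097). Per kilobase of longest coding sequence, the ratios were 0.335 and 0.159 for COL1A2/COL1A1 in cells and exosomes, 0.818 for COL5A2/COL5A1 in exosomes, and 0.545 and 0.0758 for COL6A3/COL6A1 and COL8A2/COL8A1 in cells. Without the 20 most abundant other genes the collagen share rose from 0.978% to 1.04% in cells and from 0.861% to 0.955% in exosomes. The GC offset and this length were chosen after seeing the data. The planned RefSeq protein length was not run. The cause of each shift was not tested. Some or all exosome libraries held fewer than 10 reads of COL3A1, COL4A6, COL8A1, COL8A2, COL9A2, COL9A3, COL10A1, COL11A2, COL16A1, COL24A1 and COL25A1.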

Other observations

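Circular RNAs are RNAs closed by joining the end of an exon to the start of the same or an earlier exon. Of 5179 circular RNAs listed in cells, 14 lay inside 10 collagen genes, and 8 of these were on the strand of the gene. Both ends matched annotated exon ends in 5 of the 14: 2 in COL24A1 (4 and 5 junction reads) and 1 each in COL11A1 (3), COL12A1 (3) and COL18A1 (4). Of 939 listed in exosomes, 2 lay in COL4A2, 1 of them on its strand, with 4 reads and both ends at exon ends. Each of the 16 was seen in a single library with 2 to 8 reads, so none allowed a comparison between groups.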
